A study of Mus musculus with 374 samples.

Results

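The wells compared here held large and small progenitor/stem cells of 1 mouse. Of the 374 wells of the plate that matched a labelled cell, 95 held Lin- Kit+ Sca1+ cells (LSK). From these 95 the wells compared were chosen by their rank in forward scatter area (FSC-A), a measure of the light that a cell scatters forward in the sorter and a rough guide to its size. The 32 wells with the highest FSC-A are called large, the 32 with the lowest small, and the other 31 middle. The mouse was a C57BL/6 female of 10-13 weeks, untreated as far as the labels say. The LSK cells came from its bone marrow, were stained with antibodies for 1 hour on ice and were sorted singly with the index values of each cell recorded. Libraries were made by CEL-seq2, which tags the 3' end of polyadenylated transcripts with a cell barcode and a UMI, so that copies of 1 captured molecule can be counted once. The other wells held B lymphocytes, erythroblasts and granulocytes of the same marrow and T lymphocytes of the thymus. All cells share 1 animal and 1 plate, so each size group is 1 sample. No test between the groups was therefore possible, and the intervals given are 95% exact intervals (Poisson for sums, conditional binomial for ratios) that cover counting error only.

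LSK cells are a mixed gate at the top of the haematopoietic tree. It holds haematopoietic stem cells, most of which rest outside the cell cycle in an adult mouse, and multipotent progenitors, which divide more often and are primed for lymphoid, granulocyte-monocyte or megakaryocyte-erythroid fates. A cell that enters the cycle grows, makes the enzymes that copy its DNA in S phase under the control of E2F factors, and later makes the proteins of G2 and mitosis, many of which are controlled through CHR and CCAAT elements in their promoters. Spike-in RNAs (ERCC) added to each well allow the RNA of a cell to be expressed relative to a common amount.

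Promoters of 4 genes are shown, from the S phase and G2 and mitosis lists on which the cell cycle results turn. They belong to genes with many UMIs whose promoter holds an E2F match or both a CHR and a CCAAT match. That these 4 hold matches was therefore set by the choice, and genes without such matches were passed over. The letters TTTGAA (CHR), CCAAT, and TTCCCGC or TTGGCGC (E2F) were searched on both strands, and a match is in capitals as it reads on the gene's strand. Each promoter is the RefSeq sequence from 250 bases before to 50 bases after the gene's start in GRCm38.p6, written 5′ to 3′, and matches of different motifs were counted independently of any shared bases. Mki67 lies at chr7:135716330-135716629 on the reverse strand and Top2a at chr11:99024140-99024439 on the reverse strand, and both are genes of the G2 and mitosis list. Mcm6 lies at chr1:128359656-128359955 on the reverse strand and Dnmt1 at chr9:20959839-20960138 on the reverse strand, and both are genes of the S phase list.
Mki67: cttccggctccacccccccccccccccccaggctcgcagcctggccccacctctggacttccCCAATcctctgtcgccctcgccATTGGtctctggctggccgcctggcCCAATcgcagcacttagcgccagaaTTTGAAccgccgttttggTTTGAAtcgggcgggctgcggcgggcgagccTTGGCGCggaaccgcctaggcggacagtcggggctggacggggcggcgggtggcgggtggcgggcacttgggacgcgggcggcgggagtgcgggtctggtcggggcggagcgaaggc
Top2a: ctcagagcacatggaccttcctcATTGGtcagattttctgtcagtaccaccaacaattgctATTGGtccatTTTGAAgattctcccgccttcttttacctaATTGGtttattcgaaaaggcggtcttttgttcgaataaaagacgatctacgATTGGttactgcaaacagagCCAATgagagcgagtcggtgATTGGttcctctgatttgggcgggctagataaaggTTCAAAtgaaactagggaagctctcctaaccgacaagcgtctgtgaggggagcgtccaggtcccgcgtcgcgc
Mcm6: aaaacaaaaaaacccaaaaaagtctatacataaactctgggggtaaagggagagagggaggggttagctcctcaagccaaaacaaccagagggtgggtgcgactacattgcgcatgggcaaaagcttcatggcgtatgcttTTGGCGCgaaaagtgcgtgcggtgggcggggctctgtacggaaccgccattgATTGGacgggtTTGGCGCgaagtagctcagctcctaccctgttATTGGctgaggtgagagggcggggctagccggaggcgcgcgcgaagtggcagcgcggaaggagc
Dnmt1: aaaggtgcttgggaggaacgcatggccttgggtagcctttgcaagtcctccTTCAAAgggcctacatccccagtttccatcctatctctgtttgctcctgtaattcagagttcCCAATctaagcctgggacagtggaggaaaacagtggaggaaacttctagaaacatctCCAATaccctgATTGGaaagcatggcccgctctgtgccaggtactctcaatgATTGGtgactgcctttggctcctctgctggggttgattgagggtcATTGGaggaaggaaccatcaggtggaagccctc
The Mki67 promoter held 2 matches to CHR, 3 to CCAAT and 1 to E2F, and the Top2a promoter held 2 to CHR, 6 to CCAAT and 0 to E2F. The Mcm6 promoter held 2 matches to CCAAT and 2 to E2F, with 0 to CHR, whereas the Dnmt1 promoter held 1 to CHR, 5 to CCAAT and 0 to E2F. Of the 29 S phase genes with a promoter in the table, 51.7% held an E2F match, against 6.93% of all 27025 promoters of the same length, and 10.3% held both CHR and CCAAT, against 7.12%. Among the 43 G2 and mitosis genes with a promoter, 60.5% held both CHR and CCAAT and 9.30% an E2F match. These matches describe the letters in the window and do not locate a bound site. Each printed window is set at 1 start of its gene. For Dnmt1 this is the outermost end of the gene in GENCODE M21 (GRCm38), at 20959888. Which start the LSK cells use was not tested, so the letters shown need not be those of the promoter in use.

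FSC-A, which chose the wells and is given only as a description, ran from 81088 to 103000 arbitrary units in the small wells (median 97088) and from 112000 to 156000 in the large wells (median 121500). At the lower boundary, 4 small wells were at 103000 and the next value outside was 104000. At the upper boundary 3 wells were tied at 112000, since the labels give values of this size to 3 digits, and the 1 with the highest forward scatter height (FSC-H), well N1 at 91776, was taken as large. The other tied wells had an FSC-H of at most 89280 and stayed in the middle group.

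Apart from FSC-H, which broke ties, the other index values recorded for the same cells did not enter the ranking. Both c-Kit and Sca-1 had defined the sort gate, and the ratio of FSC-A to FSC-H holds the ranked value itself. Side scatter had a median of 26016 in the small, 28928 in the middle and 37056 in the large wells. CD44, an adhesion receptor, had a median fluorescence of 6006 in the small, 6267 in the middle and 8017.5 in the large wells, with ranges of 3578 to 10118 in the small and 4269 to 13261 in the large wells, so that the groups overlapped. Median c-Kit, the stem cell factor receptor of the gate, was 6070.5 in the small and 7030.5 in the large wells, and median Sca-1, the other surface protein of the gate, was 5506 and 5152. Over the 95 wells the Spearman correlation with FSC-A was 0.58 for side scatter, 0.37 for CD44, 0.11 for c-Kit and 0.07 for Sca-1. The ratio of FSC-A to FSC-H, which is raised when 2 cells pass the laser together and also varies with cell shape and size, had a median of 1.23 in the small wells (1.16 to 1.36) and 1.35 in the large wells (1.22 to 1.49). The part of such pairs in the results was not tested, and no doublet caller was run on these single-cell wells. Sort time, which follows the order of the plate rows, had a Spearman correlation of 0.04 with FSC-A.

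The 7 LSK marker genes were detected in both groups, at 4020 CPM (counts scaled to 1000000 UMIs on mouse genes of the group) in the small and 3242 CPM in the large wells. Kit had 179 UMIs in the small and 193 in the large wells, with a UMI in 32 and 30 wells, Cd34 128 and 175, and Adgrg1, a receptor of stem and progenitor cells, 272 and 332. Ly6a, which encodes Sca-1, was low in both, with 21 and 27 UMIs. Markers of B lymphocytes and of T lymphocytes summed to 18 and 14 UMIs in the small and to 20 and 12 in the large wells.

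Erythroblast and granulocyte markers were not near 0 in the LSK wells. The 7 erythroblast markers, mostly haemoglobin genes, took 0.638% to 4.01% of the mouse UMIs of each small well (median 1.20%) and 0.594% to 12.1% in the large wells (median 0.935%), against a median of 1.74% in the T lymphocyte wells. Relative to ERCC the ratio of large to small was 0.98. The 8 granulocyte markers made up 0.0911% to 1.21% in the small wells (median 0.209%) and 0.0713% to 2.60% in the large wells (median 0.172%). Well K5, which had the highest FSC-A of all, held only 2003 UMIs on mouse genes, 12.1% of them on erythroblast markers and 2.60% on granulocyte markers. In the small group, wells K6 and M14 held 4.01% and 3.33% erythroblast markers and 1.21% and 1.00% granulocyte markers. A list's ratio is therefore also given without K5, K6 and M14 where that moves it outside its interval or brings the interval to include 1, a choice made after the data had been seen, as was leaving out any other named well.

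The large wells held more RNA in sum than the small wells, relative to the spike-in. Summed over wells, there were 16.2 UMIs on mouse genes for each ERCC UMI in the small wells, 17.4 in the middle wells and 23.1 in the large wells. The ratio of large to small was 1.43 (interval 1.40 to 1.46), that of middle to small 1.08 (1.05 to 1.10) and that of large to middle 1.33 (1.30 to 1.36). Per well, UMIs per ERCC UMI ran from 7.51 in well M3 over a median of 15.4 to 37.9 in well N14 among the small, and from 12.0 in well K12 over a median of 22.1 to 37.0 in well M15 among the large. The groups overlapped almost throughout, with 28 of 32 large wells above the median of the small wells and 6 small wells below the lowest large well. Without K5, K6 and M14 the ratio was 1.48. The UMIs per well themselves had a median of 7174.5 (3635 to 20193) in the small wells and 9635 (2003 to 18677) in the large wells, and ERCC UMIs a median of 474 and 452.

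**Figure D1:**
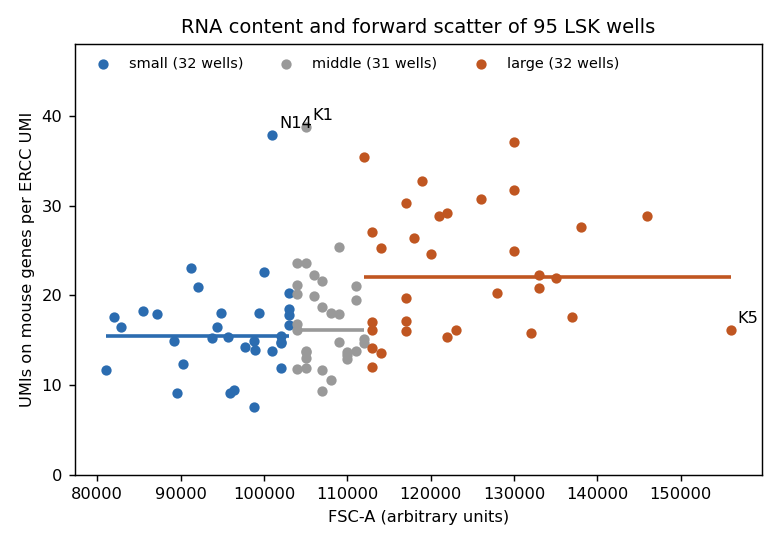
UMIs on mouse genes per ERCC UMI (vertical axis) against FSC-A (horizontal axis, arbitrary units) for the 95 LSK wells, with 1 point per well and a horizontal line at the median of each group. The medians were 15.4 in the small, 16.1 in the middle and 22.1 in the large wells, and small well N14 at 37.9 and middle well K1 at 38.8 stood above every other well.

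RNA content and FSC-A were related over the wells as a description, with Spearman's rho of 0.38 and Pearson's r of 0.40 between FSC-A and log2 UMIs per ERCC UMI (n = 95 cells, which share the animal, the plate and the library). Within plate rows rho was 0.12 in row K, 0.39 in row L, 0.39 in row M and 0.50 in row N. On log2 scales the fitted slope was 1.07. The ratio of the group medians of large to small was 1.25 for FSC-A and 1.43 for UMIs per ERCC UMI. The summed ratio of large to small was 1.28 in row K, 1.47 in row L, 1.56 in row M and 1.33 in row N.

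A larger number of molecules did not come with a larger number of genes at equal depth. The median number of genes with a UMI per well was 3087 (2117 to 5800) in the small and 3866 (1137 to 5480) in the large wells. After each well was thinned to 3000 UMIs on mouse genes, it was 1729 in the 32 small wells and 1726 in the 31 large wells deep enough, a difference of -3.

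The S phase list, 40 genes of DNA replication, made up 2.60 times as large a share of the UMIs in the large as in the small wells (interval 2.38 to 2.84). Of the 38 genes with a row in the table, the sum was 2647 CPM in the small, 2990 in the middle and 6885 in the large wells. The middle wells were thus near the small ones, at a ratio of 1.13 (1.02 to 1.26), and the large wells were 2.30 times above the middle ones (2.12 to 2.50). Per well the share ran from 0.0911% over a median of 0.169% to 0.760% in the small wells, and from 0.0730% over a median of 0.553% to 1.25% in the large wells. Of the 32 large wells, 13 lay above the highest small well and 27 above the median of the small wells, while the lowest large well, K20, lay below every small well. The median share was 0.111% in the B lymphocyte, 0.142% in the T lymphocyte and 0.0778% in the granulocyte wells, which were shallower (median 3028.5, 4347 and 3880 UMIs, against 7959 over all LSK wells), and 0.882% in the erythroblast wells. Per ERCC UMI the ratio of large to small was 3.72. It was 2.86 without K5, K6 and M14 and 2.95 without N14, the small well with the highest share, and 1.70 with all 95 wells split into 48 large and 47 small.

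**Figure D2:**
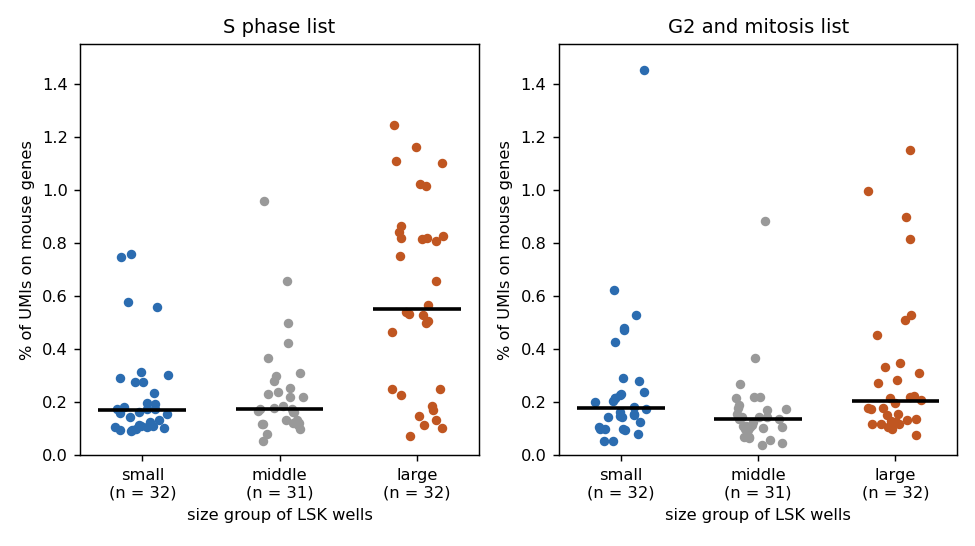
Share of UMIs on mouse genes (percent, vertical axes) in the S phase list (left) and the G2 and mitosis list (right) for each of the 95 LSK wells by size group, with 1 point per well, spread sideways at random, and a black line at the median. The S phase medians were 0.169% in the small, 0.176% in the middle and 0.553% in the large wells, and the G2 and mitosis medians 0.179%, 0.135% and 0.204%.

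Single S phase genes were counted where they had at least 50 UMIs in the 64 large and small wells, which 23 of the 38 had. Of these, 19 were at least 2-fold higher in CPM in the large wells, where 2.95% of the 2237 genes with as many UMIs were, and 0 were at least 2-fold higher in the small wells, where 1.12% were. All 23 had a log2 ratio above 0, and their median was 1.34, against a median of 0.04 over the 2237 genes. A gene can reach 50 UMIs through the large wells alone, so this count is a description. The 15 S phase genes under 50 UMIs had 66 UMIs in the small and 284 in the large wells, a CPM ratio of 3.36 (2.56 to 4.46).

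The helicase that opens DNA at replication origins was represented by 5 of its Mcm subunits. Mcm6 (ENSMUSG00000026355), the member with the most UMIs, had 62 in the small, 84 in the middle and 196 in the large wells, found in 22 of 32 small and 28 of 32 large wells, a log2 CPM ratio of 1.30 (0.88 to 1.74). Mcm5 had a log2 ratio of 1.85 (21 and 97 UMIs), Mcm4 1.64 (23 and 92), Mcm3 1.54 (29 and 108) and Mcm2 1.07 (23 and 62). Cdt1, which loads this helicase, had 8 UMIs in the small and 42 in the large wells, never more than 1 in a small well and up to 7 in a large one (log2 ratio 2.03, 0.93 to 3.34).

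The named factors of the replication fork showed the same direction. Apart from Mcm6 and Pcna, the genes of this and the preceding paragraph were named for a ratio past 2-fold. Their values therefore cannot stand for the whole list. Pcna, the sliding clamp of the polymerases, had 29 UMIs in the small, 26 in the middle and 127 in the large wells (log2 ratio 1.77, 1.18 to 2.41), with up to 3 in a small well and up to 13 in a large well. Prim1, the primase that starts each strand, was at 1.84 and Lig1, the ligase that joins the fragments, at 1.81. Fen1, the nuclease that removes primer flaps, was at 1.34 from 12 and 39 UMIs. Lig1 and Fen1 share exon positions with genes on the opposite strand, and as the use of strand in the counting is not stated, their counts are less certain. The same holds for other genes named below, among them Paics, Cdk4, Cdk6, Tuba1b, Txnip, Mpo and Prtn3.

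Hells (ENSMUSG00000025001), a chromatin remodeller tied to DNA methylation, had the highest log2 ratio of the genes named by the rule, 2.71 (1.76 to 3.82). In GENCODE M21 (GRCm38) it spans chr19:38930915-38971051, forward strand. It had 10 UMIs spread over 8 small wells, 30 over 7 middle wells and 84 over 24 large wells, and without large well N3, which held 12, the log2 ratio was 2.56. Uhrf1, which brings the maintenance methyltransferase to newly copied DNA, came next with 8, 16 and 65 UMIs and a log2 ratio of 2.66 (1.60 to 3.94). Dnmt1, that methyltransferase, was higher in the large wells by less, with 51 and 103 UMIs and a log2 ratio of 0.66 (0.16 to 1.17), which was 0.48 (-0.03 to 1.01) without large well N1, which held 17. Pclaf, a partner of the Pcna clamp, was at 2.53 (8 and 59 UMIs, in 5 and 14 wells), or 3.44 without N14, which held 4 of the 8, and Dtl, which directs the breakdown of Cdt1 in S phase, at 1.89 (16 and 76).

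The enzymes that supply nucleotides were also higher in sum in the large wells. Dut, which removes dUTP, had 23 and 77 UMIs in the small and large wells (log2 ratio 1.39), and Rrm1, the large subunit of ribonucleotide reductase, 23 and 71 (1.27). In the separate nucleotide synthesis list, 4 of the 8 genes with at least 50 UMIs were at least 2-fold higher in the large wells (2.95% of all 2237 genes) and 0 in the small wells (1.12%), a count open to genes that reach 50 UMIs through the large wells alone. Its 16 genes with a row summed to 1034 CPM in the small, 1306 in the middle and 1915 in the large wells, a ratio of 1.85 (1.60 to 2.15). Dctpp1, which breaks down modified deoxycytidine triphosphates, had 7, 27 and 52 UMIs across the small, middle and large wells (log2 ratio of large to small 2.54). The purine enzymes Atic and Paics were at 1.35 and 0.79. Gmps, of the same list, was at 0.33 (-0.41 to 1.10) from 26 and 42 UMIs. The nucleoside diphosphate kinases Nme1 and Nme2, which share exons with a readthrough gene, were at 1.20 and 1.16.

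The S phase share varied with RNA content as well as with FSC-A over the 95 cells. Spearman's rho was 0.39 between FSC-A and the S phase share, and 0.56 between the S phase share and UMIs per ERCC UMI. With the S phase share held fixed, the partial rho of FSC-A with UMIs per ERCC UMI was 0.21, and with UMIs per ERCC UMI held fixed that of FSC-A with the S phase share was 0.23. Within plate rows the rho of FSC-A and S phase share was -0.21 in row K, 0.56 in row L, 0.56 in row M and 0.54 in row N. The summed CPM ratio of large to small was 0.95 (0.75 to 1.21) in row K, with 6 large and 7 small wells, 2.84 in row L, 4.01 in row M and 2.20 in row N, so the difference did not hold within row K. Single wells moved these values: row K was at 1.503 (1.12 to 2.03) without small well K6 and at 0.46 (0.33 to 0.64) without large well K18, and row N was at 4.00 without N14. Without K5, K6, M14 and N14 together the ratio was 1.44 in row K, 2.84 in row L, 5.15 in row M and 4.00 in row N. Middle well K1, which also belongs to that row, had the highest RNA content of all 95 wells and an S phase share of 0.957%.

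The G2 and mitosis list differed far less between the size groups. Its 48 genes with a row summed to 3113 CPM in the small, 1828 in the middle and 3439 in the large wells, a ratio of large to small of 1.10 (1.01 to 1.21). Per well the share ran from 0.0527% over a median of 0.179% to 1.45% in the small wells, and from 0.0776% over a median of 0.204% to 1.15% in the large wells, with 0 large wells above the highest small well. Only 6 of the genes had at least 50 UMIs, of which 1, Mad2l1, was at least 2-fold higher in the large wells (2.95% of all 2237 genes) and 0 were at least 2-fold higher in the small wells (1.12%), with a median log2 ratio of 0.23. Single wells of both groups moved the ratio across 1. Small well N14 held 220 of the 789 G2 and mitosis UMIs of its group, and without it the ratio was 1.44 (1.30 to 1.60). Large well M18 held 172 of the 1117 of its group, and without it the ratio was 0.99 (0.90 to 1.09). Ranking the wells by FSC-H in place of FSC-A turned the direction, at 0.926. Per ERCC UMI the ratio was 1.58. The plate rows went opposite ways, with 0.74 (0.57 to 0.96) in row K, 1.64 (1.35 to 2.02) in row L, 2.11 (1.76 to 2.53) in row M and 0.53 (0.45 to 0.62) in row N. Without N14 row N was at 1.40 (1.10 to 1.80), and without large well L6 row L was at 1.12 (0.90 to 1.40).

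Mki67 (ENSMUSG00000031004), the proliferation marker whose product coats mitotic chromosomes, had 142 UMIs in the small, 47 in the middle and 143 in the large wells. Of the 142, well N14 held 53, and of the 143, well M18 held 42. The log2 CPM ratio of large to small was -0.35 (-0.69 to 0.00), and it was 0.24 (-0.15 to 0.64) without N14 and -0.77 (-1.15 to -0.39) without M18. Top2a, the topoisomerase that untangles sister chromatids, had 76, 48 and 188 UMIs with 37 of the 76 in N14 and 36 of the 188 in large well L6, and a log2 ratio of 0.95 (0.56 to 1.35), or 1.82 (1.32 to 2.36) without N14. The condensin subunits Smc2 and Smc4 were at 0.26 (-0.27 to 0.79) and 0.21 (-0.15 to 0.58). Mad2l1, of the spindle checkpoint, had 14 and 37 UMIs (1.04, 0.12 to 2.05), and was at 0.87 (-0.08 to 1.90) without large well N1. The mitotic kinase and cyclin genes were too low to compare, with 19 and 26 UMIs for Cdk1, 7 and 12 for Ccnb1 and 8 and 9 for Ccna2.

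Well N14 stood apart from the other small wells. Its FSC-A of 101000 placed it in the small group, but its side scatter of 73088 was the highest of the 95 LSK wells, its c-Kit fluorescence of 10482 and its FSC-A to FSC-H ratio of 1.36 were the highest of the small wells, and so was its RNA content of 37.9 UMIs per ERCC UMI. It also had the highest S phase (0.760%), G2 and mitosis (1.45%) and histone (0.601%) shares of the small group. In the whole set, the wells with the highest G2 and mitosis shares were N14, the large wells L6 (1.15%), M18 (0.994%), K5 (0.899%) and N3 (0.814%), and the middle well L13 (0.882%). These 6 wells were thus 4 large, 1 middle and 1 small well. Among them, K5 held only 2003 UMIs on mouse genes, 12.1% of them on erythroblast markers. The erythroblast wells had a median G2 and mitosis share of 2.42%, and the part of erythroblast RNA in the share of K5 was not tested.

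**Figure D3:**
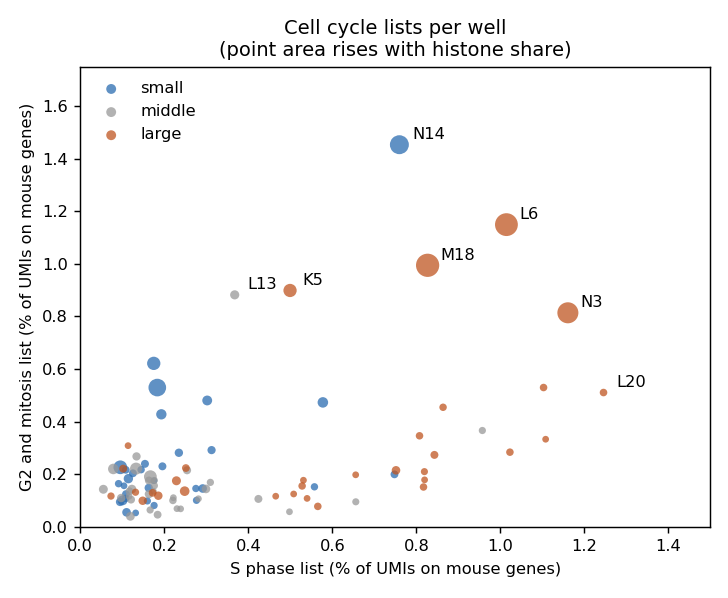
Share of UMIs on mouse genes in the G2 and mitosis list (percent, vertical axis) against the S phase list (percent, horizontal axis) for the 95 LSK wells, coloured by size group, with the area of a point rising with the share of the replication-dependent histones. The large wells spread along the horizontal axis up to 1.25% in L20, and the 4 largest points with a high G2 and mitosis share are N14, L6, M18 and N3.

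The replication-dependent histones, whose genes are used in S phase and whose transcripts mostly lack a poly(A) tail, are incompletely caught by a poly(A) primed protocol. Their 64 genes summed to 1018 CPM in the small, 394 in the middle and 1398 in the large wells, a ratio of large to small of 1.37 (1.18 to 1.61). The median share per well was lower in the large (0.0216%) than in the small wells (0.0343%). It rests on few counts, as the median was 2 histone UMIs per well in both groups. The median of all UMIs on mouse genes was 9635 in the large and 7174.5 in the small wells. Large well M18 held 164 of the 454 UMIs of its group, and without it the direction turned, at 0.93 (0.78 to 1.10), whereas without N14 the ratio was 2.00 (1.67 to 2.40). Hist1h2ap, with 79, 17 and 198 UMIs, had 37 of its small UMIs in N14 and 78 of its large UMIs in M18, and its log2 ratio was 0.97, or 0.32 (-0.10 to 0.75) without M18 and 1.79 (1.30 to 2.31) without N14. It is nearly identical to Hist1h2ao (14 and 48 UMIs, log2 ratio 1.42, or 0.91 without M18 and 2.55 without N14), and reads can be split between these copies. Over the 95 cells the histone share and the G2 and mitosis share had a Spearman's rho of 0.40 and a Pearson's r of 0.77.

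Hist1h2bc (ENSMUSG00000018102), a histone H2B gene of the same cluster, went the other way and had the lowest log2 ratio of the genes named by the rule. It had 47 UMIs in 12 small wells, 25 in the middle wells and 5 in 4 large wells, a log2 ratio of -3.59 (-5.28 to -2.27). Well N8 held 16 of the 47, and without it the log2 ratio was -3.02 (-4.74 to -1.64), while without large well K15, which held 2 of the 5, it was -4.29. Of the histone variants made outside S phase, H2afy, which encodes macroH2A, was at 0.28 (0.13 to 0.43) from 575 and 895 UMIs, H3f3b, which encodes histone H3.3, at -0.45 (-0.73 to -0.16), and H2afj, a variant of H2A, at 1.04 (0.12 to 2.05) from 14 and 37, or 0.86 (-0.10 to 1.88) without large well N3.

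The G1 cyclins, Cdks and their transcription factors were 1.29 times as high in CPM in the large wells (1.17 to 1.41). Of 7 genes with at least 50 UMIs, 0 were at least 2-fold higher in the large wells (2.95% of all 2237 genes) or in the small wells (1.12%). Cdk4 and Cdk6, the kinases that start the cycle in G1, were at log2 ratios of 0.96 (58 and 145 UMIs) and 0.50 (0.28 to 0.72, from 266 and 482). Ccnd2, a D cyclin that partners them, was at -0.45 (-0.93 to 0.02), Myb at 0.16 and Myc at -0.05. The Cdk inhibitors and pocket proteins, which hold cells before S phase, had a ratio of 0.88 (0.71 to 1.08), with Cdkn1b, the p27 gene, at -0.46 (-1.13 to 0.20). Cdkn1c, the p57 gene of resting stem cells, had 4 UMIs in the small and 2 in the large wells.

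**Figure D4:**
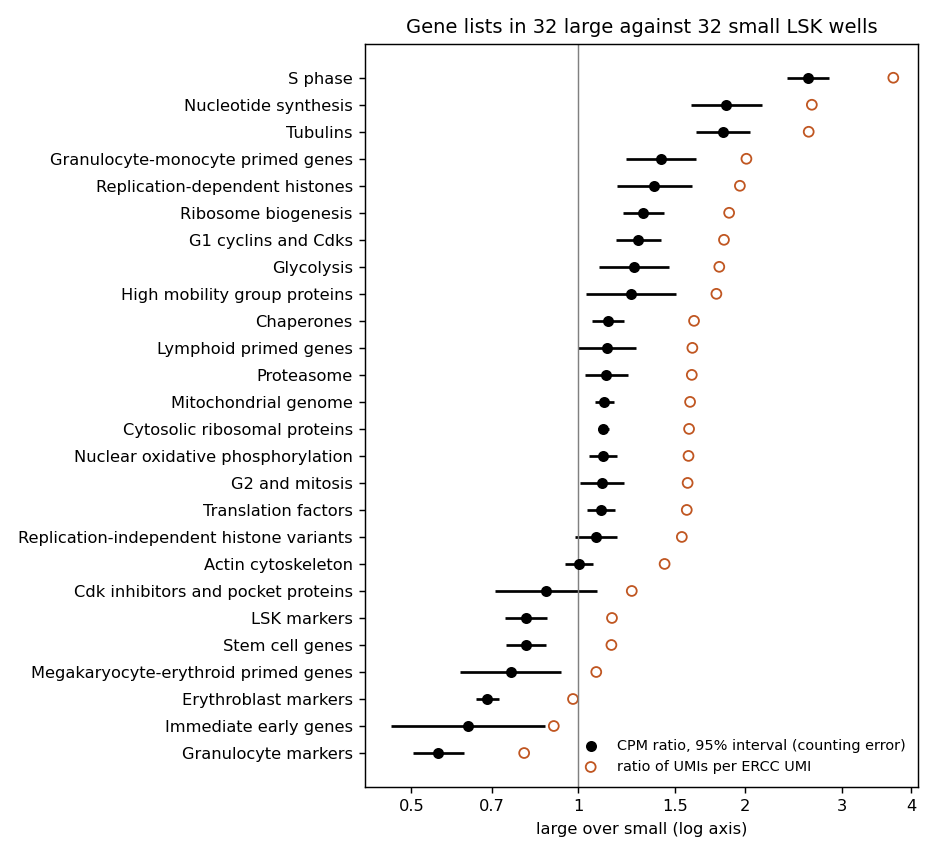
Ratio of large to small (log axis) for 26 gene lists, with filled points for CPM with the 95% interval for counting error and open points for UMIs per ERCC UMI. S phase stands highest at 2.60, nucleotide synthesis and tubulins follow at 1.85 and 1.83, and granulocyte markers stand lowest at 0.56.

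The machinery of growth and protein synthesis was nearly in proportion. The 78 cytosolic ribosomal protein genes had a CPM ratio of 1.11 (1.09 to 1.14), or 1.06 (1.03 to 1.08) without K5, K6 and M14, and the translation factors 1.10 (1.04 to 1.17), with Eef1a1 at a log2 ratio of 0.07 and Eef2 at 0.04. Eif3b, a subunit of the initiation factor eIF3, was the 1 translation factor of 17 at least 2-fold higher in the large wells (27 and 72 UMIs, log2 ratio 1.06), beside 2.95% of all 2237 genes. Chaperones were at 1.13 (1.06 to 1.21) and proteasome subunits at 1.12 (1.03 to 1.23). As these ratios are relative to all UMIs of the group, a ratio of 1 still corresponds to 1.43 times as many molecules per ERCC UMI in the large wells.

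Ribosome biogenesis genes, which build ribosomes in the nucleolus, had a ratio of 1.31 (1.21 to 1.43), with 1 of 15 genes at least 2-fold higher in the large wells (2.95% of all 2237 genes) and 0 in the small wells (1.12%). That gene was Nhp2, of the particles that modify ribosomal RNA, with 8, 21 and 42 UMIs across the small, middle and large wells and a log2 ratio of 2.03 (0.93 to 3.34). It overlaps Rmnd5b on the opposite strand. Npm1, a nucleolar chaperone, was at 0.46 (0.21 to 0.71), and Ncl, which encodes nucleolin, at 0.06 (-0.27 to 0.40).

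Metabolic and cytoskeletal lists differed among themselves. Glycolysis was at 1.26 (1.09 to 1.46), with Ldha, lactate dehydrogenase A, at a log2 ratio of 0.78 (61 and 134 UMIs) and Pkm, pyruvate kinase, at 0.22. Nuclear genes of oxidative phosphorylation were at 1.11 (1.05 to 1.18). The genes of the mitochondrial genome were at 1.12 (1.07 to 1.16), but the mean of the wells' shares gave 0.996, the ratio was 1.01 (0.97 to 1.05) without large well M18 and 1.32 without small well M16, and the share per well had a median of 0.819% in the small and 0.790% in the large wells. The actin cytoskeleton was even, at 1.00 (0.95 to 1.06), with Actb at 0.09 on the log2 scale. The tubulin list, which also counts Stmn1, was at 1.83 (1.63 to 2.05). Tuba1b had 74, 67 and 236 UMIs across the small, middle and large wells (log2 ratio 1.32, 0.93 to 1.71), and Tubb5 was at 0.68. Stmn1, which binds tubulin and takes apart microtubules, was at 0.90 (0.58 to 1.22). It held 117 of the list's 440 UMIs in the small and 279 of its 1031 in the large wells. Without N14 the ratio of the tubulin list was 2.20. Of the 32 large wells, 26 lay above the small wells' median share of this list.

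Genes tied to the stem cell state were lower in share in the large wells. The 22 of 24 listed genes with a row summed to 4340 CPM in the small, 4171 in the middle and 3492 in the large wells, a ratio of 0.80 (0.74 to 0.88). Per well the share had a median of 0.447% (0.159% to 0.853%) in the small and 0.341% (0.0779% to 0.796%) in the large wells, so that the groups overlapped, with 10 of 32 large wells above the small median. Of the 8 genes with at least 50 UMIs, 0 were at least 2-fold higher in the large wells (2.95% of all 2237 genes) or in the small wells (1.12%). A log2 ratio above 0 was found for 2 of the 8, against 53.6% of the 2237 genes. Per ERCC UMI the direction turned, at 1.15. Over the 95 cells the stem cell share had a rho of -0.24 with FSC-A and -0.60 with UMIs per ERCC UMI.

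Hlf (ENSMUSG00000003949), a transcription factor gene of haematopoietic stem cells, had the lowest ratio of the 4 stem cell genes named. It had 266 UMIs in 31 small wells, 182 in the middle wells and 180 in 30 large wells, a log2 CPM ratio of -0.92 (-1.20 to -0.64), and it was the 1 named stem cell gene also lower per ERCC UMI, at -0.41. Txnip, an inhibitor of thioredoxin that is high in resting stem cells, was at -0.49 (-0.83 to -0.16) in CPM and at 0.02 per ERCC UMI. Adgrg1 was at -0.07 (-0.31 to 0.17) and Ifitm3, an interferon-induced membrane protein, at 0.30 (-0.13 to 0.74).

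Foxo3, a transcription factor that maintains stem cells outside the cycle, was among the 10 genes named as lowest in the large wells. It had 60 UMIs in 28 small wells, 39 in the middle wells and 32 in 19 large wells, a log2 ratio of -1.26 (-1.93 to -0.62). Vldlr, a lipoprotein receptor, had 59, 27 and 26 UMIs (-1.54, -2.26 to -0.85). The 14 immediate early genes, which respond to the handling of cells, together had 90, 100 and 73 UMIs and a ratio of 0.63 (0.46 to 0.87), or 0.72 (0.51 to 1.01) without K5, K6 and M14. Of these genes, 0 had at least 50 UMIs in the large and small wells, and those named went different ways. Klf6, a transcription factor, had 25, 11 and 10 UMIs (-1.68, -2.90 to -0.57). Ier3 had 20 and 11 in the small and large wells (-1.22, -2.43 to -0.09), Jund 10 and 12 (-0.09, -1.43 to 1.28) and Ier2 6 and 14 (0.86, -0.61 to 2.53). Slc25a36, a mitochondrial carrier of pyrimidine nucleotides, was at -1.32, Zfc3h1, of a nuclear RNA decay complex, at -1.30, Ccm2, a scaffold of signalling complexes, at -1.28 and Rasal3, a Ras GTPase activating protein, at -1.25.

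Lists of lineage primed genes stood on both sides of 1. The granulocyte-monocyte primed genes had a ratio of 1.41 (1.22 to 1.63), with 1 of 4 genes at least 2-fold higher in the large wells (2.95% of all 2237 genes). That gene was Mpo, the myeloperoxidase of granule precursors, with 34, 47 and 112 UMIs and a log2 ratio of 1.36, or 1.02 (0.43 to 1.64) without large well M15, which held 28, and 2.04 (1.34 to 2.80) without N14, which held 14. Plac8 was at 0.54 (0.20 to 0.88) and Prtn3, proteinase 3, at -0.18 (-0.62 to 0.26). The megakaryocyte-erythroid primed genes had a ratio of 0.76 (0.61 to 0.93), of 0.83 (0.66 to 1.04) without K5, K6 and M14, and of 1.08 per ERCC UMI. Gata2, a transcription factor of stem and megakaryocyte-erythroid cells, had 35, 59 and 24 UMIs (-0.90, -1.72 to -0.11), and was highest in the middle wells. Without small well M13 it was at -0.73 (-1.56 to 0.10). Tfrc, the transferrin receptor, was at -0.73 (-1.33 to -0.14), with 10 of its 57 small UMIs in M14, and at -0.38 (-1.05 to 0.29) without K5, K6 and M14.

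The lymphoid primed genes had a ratio of 1.13 (1.00 to 1.27). It was 1.38 (1.20 to 1.58) without K5, K6 and M14 and 0.97 (0.86 to 1.10) without large well L6. Dntt, the terminal transferase of lymphoid progenitors, had 68, 80 and 177 UMIs and a log2 ratio of 1.02 (0.61 to 1.45), but large well L6 held 73 of the 177, and without it the log2 ratio was 0.31 (-0.14 to 0.78). Small well M14 held 23 of the 68, and without K5, K6 and M14 the log2 ratio was 1.70 (1.18 to 2.25). Flt3, the cytokine receptor that marks lymphoid primed progenitors, was at -0.45 (-0.80 to -0.10) in CPM, at 0.06 per ERCC UMI, and at -0.25 (-0.62 to 0.13) without K5, K6 and M14.

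The granulocyte markers were lower in the large wells, at a CPM ratio of 0.56 (0.50 to 0.62), with 3 of 8 genes at least 2-fold higher in the small wells, where 1.12% of all 2237 genes were. The ratio was 0.80 (0.71 to 0.91) without K5, K6 and M14, and the direction turned with scran size factors, a scaling of each well by its pooled counts, at 1.04. Camp, an antimicrobial granule peptide, had 54 UMIs in the small and 19 in the large wells, 13 of the 54 in K6 (log2 ratio -1.86, and -1.20 without the 3 wells). Ltf, lactoferrin, moved from -1.58 to -0.71 (-1.72 to 0.28), and S100a6, a calcium-binding protein with 14 of its 49 small UMIs in M14, from -1.33 to -0.50 (-1.40 to 0.42). The erythroblast markers had a ratio of 0.69 (0.65 to 0.72) in CPM and 0.98 per ERCC UMI, and 0.83 without the 3 wells, and turned to 1.08 with scran size factors and to 1.04 as a mean of the wells' shares. Large well K5 was kept in these turned values, with a scran size factor of 0.201, 12.1% erythroblast markers and 2.60% granulocyte markers. The part of K5 in the turns was not tested. Median shares per well stayed lower in the large wells, at 0.935% against 1.20% for erythroblast and 0.172% against 0.209% for granulocyte markers. Hba-a1 and Hbb-bs were at log2 ratios of -0.48 and -0.52 and also turned with scran size factors, to ratios of 1.07 and 1.17, and reads can be split between each and its near copy, Hba-a2 or Hbb-bt. The part of RNA from other cells in these values was not tested.

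Over all genes the size groups were close in composition. Of 2237 genes with at least 50 UMIs, 66 were at least 2-fold higher in CPM in the large wells and 25 in the small wells, and the 5th and 95th percentiles of the log2 ratios were -0.69 and 0.81. Of the 66, 20 were in the S phase and G2 and mitosis lists. Relative to ERCC these counts were 315 and 4, the median log2 ratio was 0.55, and 89.3% of the genes were above 0, against 53.6% in CPM.

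**Figure D5:**
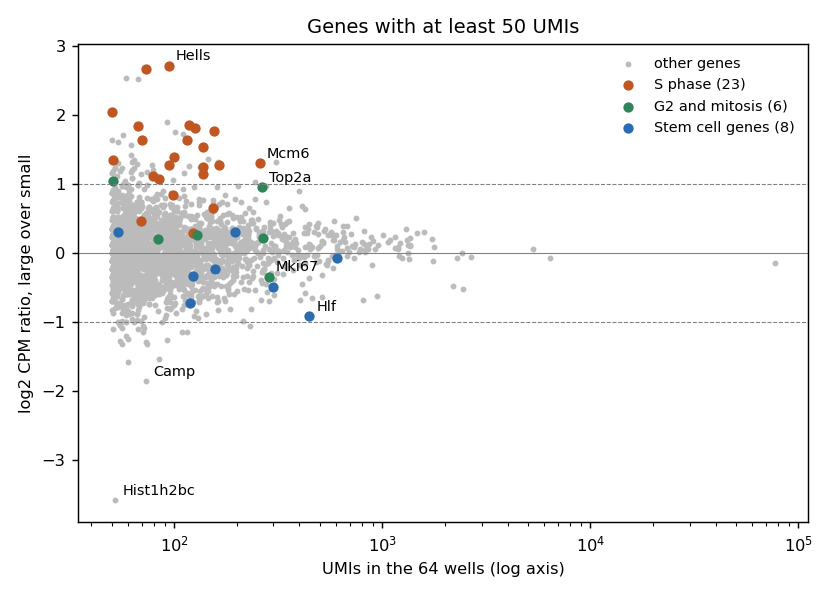
Log2 CPM ratio of large to small wells (vertical axis) against the UMIs in the 64 wells (horizontal axis, log scale) for the 2237 genes with at least 50 UMIs, with 23 S phase, 6 G2 and mitosis and 8 stem cell genes coloured and dashed lines at a 2-fold difference. The S phase genes lie above 0 throughout, up to 2.71 for Hells, while Hlf lies at -0.92 and Hist1h2bc at -3.59.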

How the data were processed

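The table deposited by the authors holds raw UMI counts (whole numbers without scaling) for 19829 mouse genes and 74 ERCC controls in each well. In their scPipe workflow reads are aligned, assigned to exons and collapsed by UMI. For the counts, the aligner version, build, annotation and use of strand were not given in the sources used here, and the labels contradict each other on where read 1 holds the cell barcode and the UMI, so the counts were taken as deposited. Symbols and positions came from GENCODE M21 (GRCm38), which matched 19755 rows, and promoters from RefSeq GRCm38.p6. Columns were matched to samples by well name, 9 that matched no sample were not used, and the 374 matched wells have 374 distinct cell barcodes. LSK wells were ranked by the FSC-A of the labels, with ties broken by FSC-H. UMI counts were summed per size group and divided by the UMIs on mouse genes (CPM) or by the ERCC UMIs. Each group is 1 sample of 1 mouse, so no p-value or standard error was computed. Thinning drew 3000 UMIs per well without replacement, with a fixed seed. A sum under 3 UMIs was set to 3 for the 2-fold counts.

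Python 3.11.15 with numpy 2.4.6, pandas 2.3.3, scipy 1.17.1 and matplotlib 3.10.9 was used, and R 4.3.3 with scran 1.30.0 for 1 alternative. The intervals and the thinning were checked on simulated counts. In these all wells of a group shared 1 expression profile, so the check does not cover differences between the wells of a group. The members and the 28 gene lists were chosen with earlier results of these data known. The genes named are the 10 highest and 10 lowest log2 ratios among genes with at least 50 UMIs in both groups together and detected in 25% or more of the higher group's wells, the up to 4 members of each list with the most UMIs, further members past 2-fold with at least 50 UMIs, and Kit, Ly6a, Cd34, Flt3, Mki67, Ccnb1, Ccna2, Cdk1, Top2a, Pcna, Cdkn1b, Cdkn1c and Myc. List genes without a row, and the human cell line and spleen data of the paper, are not analysed here, and 1 gene that the rule names is not reported here. The alternatives changed the choice of wells, the scaling, the count minimum and the fold.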

Additional observations from a re-analysis of the deposited data

How the results depend on the processing

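Over all plate rows together, the RNA content and S phase ratios stayed above 1 under every alternative run for them. Within row K alone the S phase ratio was 0.95 (0.75 to 1.21). RNA content (1.43) was 1.49 with 24 wells a group, 1.21 with 48 and 47 wells, 1.36 ranked by FSC-H, 1.39 with tied wells kept, 1.29 with 8 wells a group from each plate row, 1.48 without K5, K6 and M14, 1.48 without N14 and 1.28 without ERCC scaling, and leaving out each well in turn gave 1.40 to 1.48. The S phase ratio (2.60) was 1.70 with 48 and 47 wells, 2.18 by FSC-H, 1.93 by plate row, 2.34 without 9 large wells of the highest FSC-A to FSC-H ratio, 2.86 and 2.95 without the 3 wells and without N14, and 3.72 per ERCC UMI, with 2.51 to 2.95 over single wells left out. The G2 and mitosis ratio (1.10) turned to 0.926 by FSC-H and to as low as 0.987 with M18 left out (highest 1.44, N14), and was 1.00 without those 9, 1.44 without N14, 1.22 as a mean of shares, 1.58 per ERCC UMI, 1.26 with scran size factors and 1.28 after thinning. The number of genes at least 2-fold higher in the large wells (66) was 34 with 48 and 47 wells, 39 by FSC-H, 40 by plate row, 32 without those 9, 298, 19 and 682 at minimums of 20, 100 and 1 UMIs, 315 per ERCC UMI and 229 at 1.5-fold, and in the small wells (25) it was 210, 3 and 893 at those minimums, 4 per ERCC UMI and 178 at 1.5-fold. Genes per well differed by 779 without thinning.

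Ratios with an interval that excluded 1 and that changed direction were, per ERCC UMI, stem cell genes 1.15, megakaryocyte-erythroid primed genes 1.08, LSK markers 1.15, Mki67 1.12, H3f3b 1.05, Txnip 1.01, Flt3 1.04 and Hba-a1 1.02. With scran size factors they were the mitochondrial genome 0.974, erythroblast markers 1.08, granulocyte markers 1.04, mt-Rnr1 0.998, Hbb-bs 1.17, Hbb-bt 1.09, S100a9 1.41, Hba-a1 1.07, Hba-a2 1.03 and Retnlg 1.17. As a mean of shares they were the mitochondrial genome 0.996 and erythroblast markers 1.04, with large well K5 kept, as in the scran values. After thinning they were replication-dependent histones 0.973 and the mitochondrial genome 0.994, and Mki67 was at 1.18 without N14. The histones turned to 0.927 with M18 left out (highest 2.00, N14). Leaving out K5, K6 and M14 or N14, and all alternatives for other lists and single genes, were chosen after seeing the data. For other lists and single genes, 1743 values stayed within their counting intervals, 222 moved outside them and 24 changed direction. The causes were not tested. No paired analysis was possible because each size group is 1 sample and wells carry no replicate pairing.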
